A study of Sus scrofa with 36 samples.

Results

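The antioxidant enzyme genes described here are the genes of the pig heart total RNA table named SOD1, SOD2, CAT, GPX1, PRDX1, TXN or NQO1. Of these 7 names, 5 (SOD1, SOD2, GPX1, PRDX1 and NQO1) had a row among the 9815 genes of the table. CAT (catalase) and TXN (thioredoxin) had no row under these names and were not analysed here. In the case of TXN, 2 rows without a name overlap the RefSeq position of the gene, and they were not used here. Hearts of domestic Yorkshire pigs of both sexes, fed normally and without further treatment, were collected 1, 3, 7 and 28 days after birth (P1, P3, P7 and P28). Total RNA of 12 hearts, 3 pigs at each age, was depleted of ribosomal RNA and sequenced. The pigs of an age are numbered 4 to 6 here, as in the column names, and a number shared between ages is not stated to mark a shared litter or day. The gene table ends within chromosome 2 and holds genes of chromosomes 1, 2, 6 and 13.

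Oxygen tension in the heart rises at birth and cardiac muscle turns to mitochondrial oxidation of fatty acids, in which the respiratory chain leaks superoxide. Superoxide dismutases turn superoxide into hydrogen peroxide, and glutathione peroxidases, peroxiredoxins and catalase remove the peroxide. Glutathione and thioredoxin supply the electrons for the glutathione peroxidases and peroxiredoxins and are kept reduced by NADPH. Many of these enzymes, NQO1 among them, are induced through the transcription factor NRF2.

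All 5 genes are protein coding, and positions are of Sscrofa11.1. SOD1, the copper and zinc superoxide dismutase of the cytosol, is ENSSSCG00000021355 on chromosome 13, from 195326649 to 195337749. SOD2, the manganese superoxide dismutase of the mitochondrial matrix, is ENSSSCG00000040317 on chromosome 1, from 7651280 to 7691723. GPX1, a selenium-containing glutathione peroxidase, is ENSSSCG00000033727 on chromosome 13, from 31914932 to 31917335. PRDX1, a peroxiredoxin that takes its electrons from thioredoxin, is ENSSSCG00000003914 on chromosome 6, from 165824520 to 165861442. NQO1, a quinone reductase, is ENSSSCG00000002754 on chromosome 6, from 17292769 to 17302590.

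The libraries held 8887176 to 14883849 counts over the genes of the table. Levels are CPM, a library's counts scaled to the same total over these genes with TMM factors. The 9 genes named Metazoa_SRP, copies of the RNA of the signal recognition particle, took 7.09% to 19.7% of a library's counts, and the 5 antioxidant genes together took 0.131% to 0.280%. The 9 cardiomyocyte markers with a row, among them TNNI3, TNNC1, MYL3 and MYBPC3, summed to between 77027 and 105107 CPM, without TMM factors, in every library. In whole heart RNA, fewer cells of a type and less RNA per cell cannot be told apart.

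Per kilobase of the summed exons, SOD2 was the most abundant of the 5, with a mean over the 12 libraries of 339 CPM per kilobase. PRDX1 followed at 95.2, SOD1 at 75.4, GPX1 at 63.3 and NQO1 at 19.9 CPM per kilobase. On this scale SOD2 stood at the 98.1 percentile of the 5526 genes tested, PRDX1 at 93.3, SOD1 at 91.3, GPX1 at 89.1 and NQO1 at 66.2. The highest library exceeded the lowest 1.68-fold for SOD1, 2.29-fold for PRDX1, 2.32-fold for NQO1, 2.75-fold for SOD2 and 10.3-fold for GPX1. SOD1 varied least over the 12 hearts by this ratio and GPX1 most. Per kilobase, every library of SOD2, from 187 to 515, lay above every library of PRDX1, from 60.9 to 139.6. PRDX1, SOD1 and GPX1, next to each other in this order, overlapped, and GPX1 lay within the range of NQO1, from 11.5 to 26.7, in P7 pig 5 (11.9) and below it in P7 pig 6 (9.98).

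**Figure D1:**
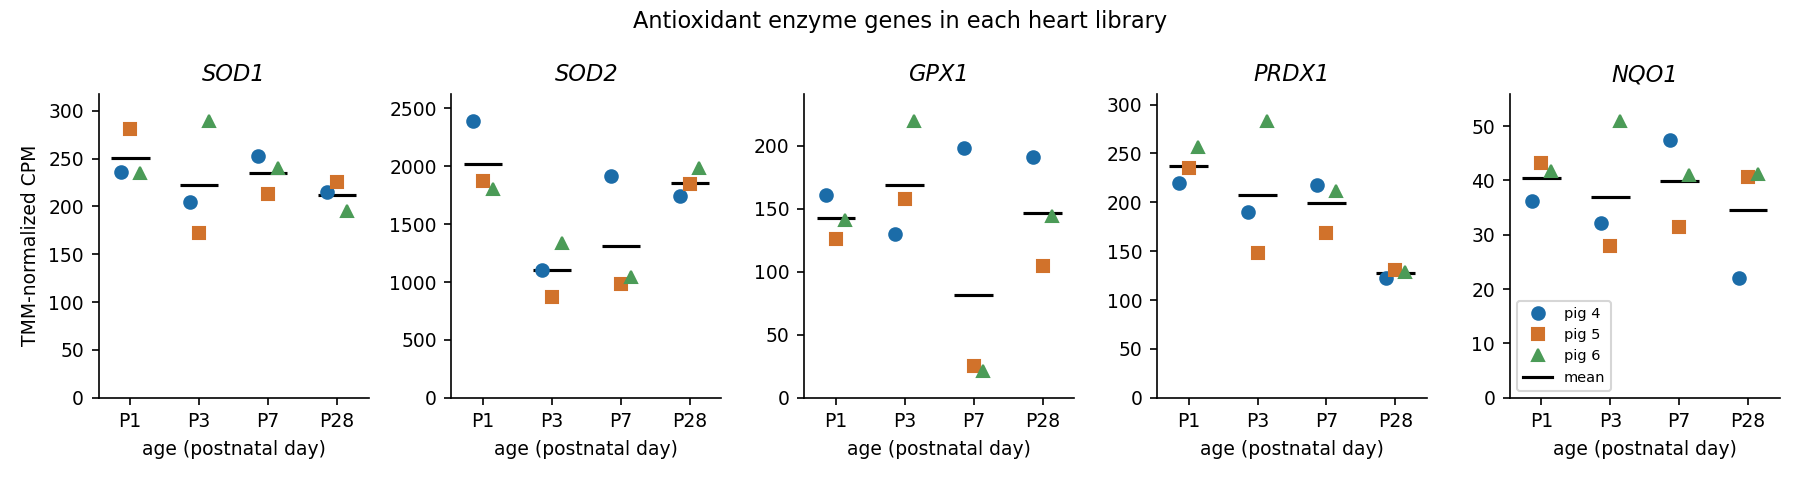
Levels of the 5 antioxidant enzyme genes in TMM-normalized CPM (vertical axes, each from 0) in pigs 4, 5 and 6 of each age (points by shape), with the mean of the age (line). PRDX1 was lowest in the 3 P28 pigs, SOD2 was lower in the 3 P3 pigs than in every P1 and P28 pig, and GPX1 was at 25.5 and 21.3 CPM in 2 of the 3 P7 pigs and at 105 CPM or more in all other pigs.

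PRDX1 fell between P1 and P28. Its levels at P1 were 220.0, 235 and 257 CPM in pigs 4, 5 and 6. At P3 they were 190.2, 148 and 283 CPM, and at P7 218, 169 and 212 CPM. At P28 they were 123, 131 and 129 CPM. Every P28 pig lay below every younger pig, while P3 and P7 overlapped each other. The mean was 237 ± 18.6 CPM at P1 and 128 ± 3.85 CPM at P28 (SD, n = 3 each). By the fit below, the level at P28 was 46.2% lower. The log2 change from P1 to P28 was -0.89 (SE 0.20, 95% interval -1.32 to -0.47; edgeR quasi-likelihood test, Benjamini-Hochberg adjusted p = 0.00960). PRDX1 was the only 1 of the 5 genes called between these ages, at which 15.3% of the 5526 genes tested were called and 7.93% were called lower. The call was kept in all 21 alternative analyses, with a log2 change between -0.95 and -0.84.

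PRDX1 was also lower at P28 than at P3, by a log2 change of -0.70 (SE 0.19, adjusted p = 0.0289 by edgeR), and than at P7, by -0.65 (SE 0.19, adjusted p = 0.0354). The comparisons with P28 share its 3 pigs, and both calls were close to the threshold of 0.05. The P3 call was lost without P3 pig 6 (log2 change -0.42, adjusted p = 0.0781), without P28 pig 4, 5 or 6 (adjusted p = 0.0871, 0.0688 and 0.0740) and in a fit of these ages alone (-0.68, adjusted p = 0.105). The P7 call was lost without P1 pig 5 or 6 (adjusted p = 0.0510 and 0.0503), P7 pig 4 or 6 (0.113 and 0.0919) and P28 pig 4, 5 or 6 (0.0979, 0.0865 and 0.0902). From P1 to P3 the log2 change was -0.19 (adjusted p = 0.627) and from P1 to P7 it was -0.25 (adjusted p = 0.606). The 3 P28 pigs were close together, with an SD of 0.04 on the log2 scale, at the 6.17 percentile of the genes tested at that age.

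SOD2 was lower at P3 than at P28, and its P1 and P28 levels overlapped. Its levels at P1 were 2390.3, 1874 and 1806 CPM in pigs 4, 5 and 6, and at P3 1105, 869 and 1339 CPM. At P7 they were 1916, 984 and 1044 CPM, so that pig 4 stood at the P1 level and pigs 5 and 6 within the P3 range. At P28 they were 1747, 1849 and 1984 CPM. No P3 pig reached the lowest P1 or P28 pig. The means were 2024 ± 319.5 CPM at P1, 1104 ± 235 at P3, 1315 ± 522 at P7 and 1860.0 ± 119 at P28 (SD, n = 3 each).

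SOD2 rose from P3 to P28 by 0.75 on the log2 scale (SE 0.24, 95% interval 0.24 to 1.27; edgeR adjusted p = 0.0489). SOD2 and PRDX1, which moved in opposite directions, were the 2 of the 5 genes called between P3 and P28, where 16.5% of all genes tested were called, 7.98% higher and 8.51% lower. Their groups did not overlap between these ages, as for 32.0% of all genes. The SOD2 call was lost without P1 pig 5 or 6 (adjusted p = 0.0640 and 0.0644), P3 pig 4 or 5 (0.0795 and 0.127), P7 pig 6 (0.0514) or P28 pig 4, 5 or 6 (0.0892, 0.0974 and 0.123). From P1 to P3 the log2 difference of SOD2 was larger in size, -0.87 (SE 0.24, 95% interval -1.39 to -0.36), with an unadjusted p of 0.00301 and an adjusted p of 0.161 by edgeR. With DESeq2, which called 2.21% of all genes tested between these ages, the same difference was -0.88 with an adjusted p of 0.0305. Between these ages edgeR called 3 of 5526 genes (0.0543%) and none of the 5 antioxidant genes. An unadjusted p under 0.05 was given to 840 genes (15.2%), SOD2 alone among the 5. The groups of 16.0% of the genes tested did not overlap between P1 and P3, and SOD2 was the only 1 of the 5 among them. From P1 to P28 the log2 change of SOD2 was -0.12 (95% interval -0.64 to 0.39, adjusted p = 0.772). The interval allows a drop of up to 0.64 or a rise of up to 0.39.

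**Figure D2:**
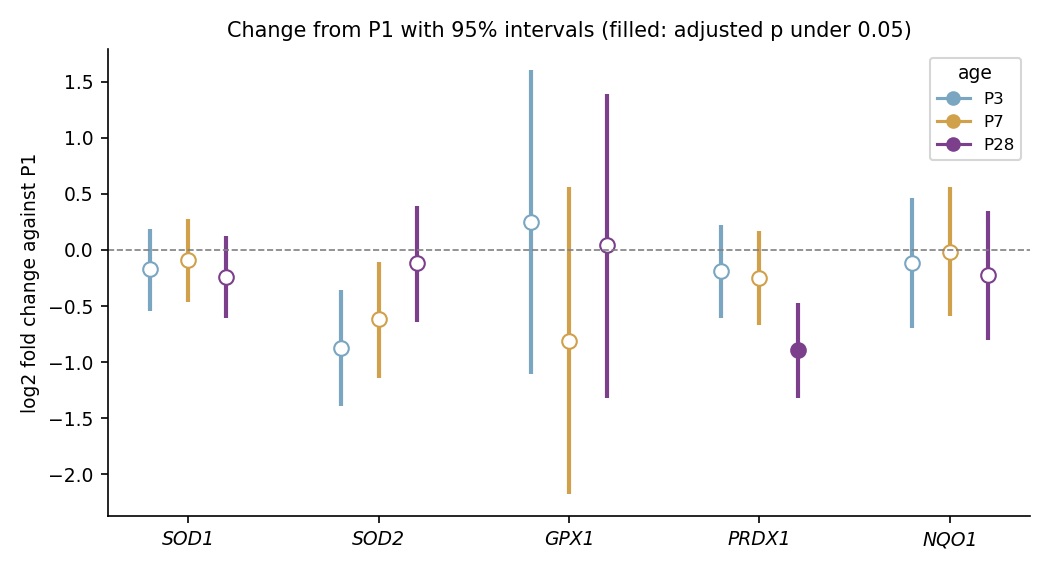
Log2 change of the 5 antioxidant enzyme genes at P3, P7 and P28 against P1 (points) with 95% intervals (lines), filled where the edgeR adjusted p was under 0.05. The only filled point is PRDX1 at P28, at -0.89, and the intervals of GPX1 are the widest.

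No age difference of GPX1 was detectable against its spread, and 2 of the P7 hearts stood apart from all others. Its levels at P1 were 161, 126 and 141 CPM in pigs 4, 5 and 6, at P3 129.8, 158 and 219.6 CPM, and at P28 191, 105 and 144 CPM. At P7 pig 4 had 198 CPM, whereas pigs 5 and 6 had 25.5 and 21.3 CPM. These rest on 2205, 383 and 260 counts, so the low values are far above a count of 0. P7 pig 4 lay within the range of the other ages, and P7 pigs 5 and 6 lay below each of the other 10 hearts. The level in pig 4 was 7.78-fold that in pig 5 and 9.32-fold that in pig 6. The SD of the 3 P7 pigs was 1.78 on the log2 scale, at the 99.7 percentile of the genes tested at that age, whose median was 0.15. From P1 to P7 the log2 difference was -0.81 (SE 0.63, 95% interval -2.18 to 0.56, adjusted p = 0.604 by edgeR). Without P7 pig 4 it was -2.61 with an adjusted p of 0.00137, from a fit in which the 2 low P7 pigs remain. That fit called 0.563% of all genes tested. Over the 21 alternatives the log2 difference ranged from -2.61 to -0.35, and 20 of them gave no call (adjusted p up to 0.934). From P1 to P28 the log2 difference was 0.04 (95% interval -1.32 to 1.39, adjusted p = 0.977).

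Of the 2059 genes with a mean of at least 0.5 times that of GPX1, GPX1 was the only 1 whose level in pig 4 exceeded those in both other pigs by as much (0.0486%). Of all 5526 genes tested, 7 (0.127%) did so, and the other 6 had means of at most 2.68 CPM. In the other direction, 15 of the 5526 genes were lower in pig 4 than in both other pigs by as much. Ranked among the 2059 genes by the smaller of the 2 ratios, SOD2 came 7th, with pig 4 at 1.95-fold pig 5 and 1.84-fold pig 6. SOD1 came 283rd and PRDX1 412th. All 5 antioxidant genes were highest in P7 pig 4, and 4 of the 5 were lowest in P7 pig 5. The ranking was made after the values of GPX1 were seen and is a description. The marker sums in P7 pigs 4, 5 and 6 were 5.34, 12.5 and 5.1 CPM for the 3 erythroid markers with a row, 735, 622 and 716 CPM for 11 rows of 10 leukocyte and macrophage markers (MPEG1 has 2 rows, of which 1 was tested) and 1106, 1574 and 1052 CPM for the markers of cycling cells. They were 91185, 100205 and 77027 CPM for cardiomyocyte markers, 1185, 1521 and 985 CPM for endothelial markers, 575, 766 and 501 CPM for smooth muscle and pericyte markers and 35.3, 35.7 and 34.5 CPM for TCF21. These are CPM without TMM factors, unlike the levels of GPX1. On this scale pig 5 was highest in all but the leukocyte sum, in which it was lowest. The TMM factors of P7 pigs 4, 5 and 6 were 1.06, 1.14 and 0.990. With them TCF21 lay between 31.2 and 34.8 CPM at P7, and pig 5 was no longer its highest. The Metazoa_SRP genes took 7.09% of counts in pig 5, the lowest share of the 12 libraries, 19.7% in pig 6, the highest, and 12.2% in pig 4. The part of these cells and of this share in the GPX1 values was not tested.

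**Figure D3:**
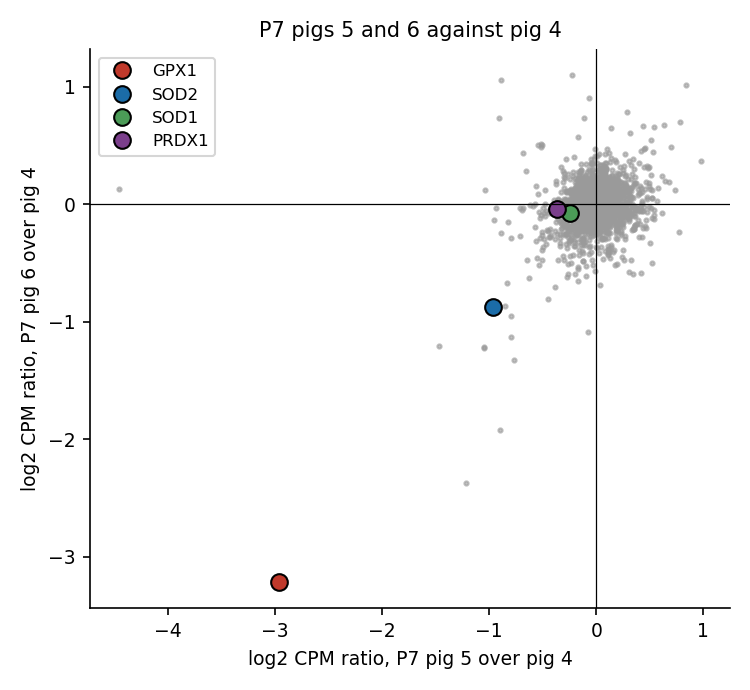
Log2 ratio of CPM in P7 pig 5 (horizontal axis) and P7 pig 6 (vertical axis) to that in P7 pig 4 for the 2059 genes with at least 0.5 times the mean level of GPX1 (grey points), with the 4 antioxidant genes among them in colour. GPX1 lies alone at the lower left, where pig 4 had 7.78 and 9.32 times the level of pigs 5 and 6, SOD2 lies between it and the bulk of the genes, and SOD1 and PRDX1 lie within the bulk.

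SOD1 did not pass the test in any comparison. Its levels at P1 were 236, 280.4 and 235 CPM in pigs 4, 5 and 6, at P3 205, 172 and 289 CPM, at P7 253, 213 and 239.9 CPM, and at P28 215, 225 and 195 CPM. The P3 pigs spanned the range of all other ages, and every P28 pig lay below every P1 pig. The mean was 250.4 ± 26.0 CPM at P1 and 212 ± 15.3 CPM at P28 (SD, n = 3 each), a log2 difference of -0.24 (95% interval -0.61 to 0.12; adjusted p = 0.357 by edgeR). SOD1 and PRDX1 were the 2 of the 5 genes whose groups did not overlap between P1 and P28, as for 44.4% of all genes tested. The log2 difference of SOD1 was -0.17 from P1 to P3 (adjusted p = 0.619) and -0.09 from P1 to P7 (adjusted p = 0.871).

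NQO1 was the least abundant of the 5 and did not pass the test in any comparison. Its levels at P1 were 36.2, 43.2 and 41.8 CPM in pigs 4, 5 and 6, at P3 32.1, 28.0 and 50.9 CPM, at P7 47.4, 31.4 and 41.0 CPM, and at P28 22.0, 40.6 and 41.2 CPM. The 4 ages overlapped, and the lowest heart was P28 pig 4. The log2 difference from P1 was -0.12 at P3 (adjusted p = 0.840), -0.02 at P7 (adjusted p = 0.988) and -0.22 at P28 (95% interval -0.80 to 0.35, adjusted p = 0.609). The interval at P28 allows a drop of up to 0.80 or a rise of up to 0.35.

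Against the mean of the 3 later ages, none of the 5 genes differed from P1 at an adjusted p under 0.05, as 2.46% of all genes tested did. At an unadjusted p under 0.05 the comparison held 936 genes (16.9%), SOD2 and PRDX1 among them, and DESeq2 and limma voom called none of the 5. The log2 difference was -0.54 for SOD2 and -0.44 for PRDX1 (adjusted p = 0.171 for both by edgeR). Without P7 pig 4, in a fit that called 1.76% of all genes, that of SOD2 was -0.66 with an adjusted p of 0.0324. Without P3 pig 6, in a fit that called 3.75%, that of PRDX1 was -0.54 with an adjusted p of 0.0193. Between P1 and P7 none of the 5 was called by edgeR, DESeq2 or limma voom, against 2.01% of all genes by edgeR. SOD2 alone had an unadjusted p under 0.05 there, as 16.1% of all genes did, with a log2 difference of -0.62 (adjusted p = 0.207). Without P7 pig 4 it was -1.0 with an adjusted p of 0.0465, in a fit that called 0.563% of all genes. Between P3 and P7 none was called by these tools or had an unadjusted p under 0.05, against 2.21% of all genes called and 18.9% at that unadjusted p. Without P7 pig 4 GPX1 was called, with a log2 difference of -2.86 and an adjusted p of 0.00150, in a fit that called 0.490% of all genes. The other 20 of 21 alternatives did not call GPX1 there. Between P7 and P28 PRDX1 was the only 1 called, against 18.8% of all genes called and 10.5% called lower. Its groups did not overlap there, as for 47.0% of all genes. Without P7 pig 4 the log2 changes from P7 to P28 were 0.87 for SOD2 (adjusted p = 0.0134) and 2.65 for GPX1 (adjusted p = 7.18e-04), and both were then called. That fit called 11.7% of all genes tested, and the other 20 of 21 alternatives called neither gene. A test across all 4 ages called PRDX1 (adjusted p = 0.0259) and SOD2 (adjusted p = 0.0455), as it did 21.4% of all genes. PRDX1 lost this call without P1 pig 6 (adjusted p = 0.0592) or P28 pig 4, 5 or 6 (0.0890, 0.0844 and 0.0885). SOD2 lost it without any 1 of 10 pigs, all but P3 pig 6 and P7 pig 4 (adjusted p from 0.0613 to 0.0872). Without P7 pig 4 GPX1 gained it (adjusted p = 9.66e-04), in a fit that called 16.1% of all genes. Without P7 pig 5 or 6 the adjusted p of GPX1 was 0.864 and 0.832.

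Within P3, 1 pig was highest throughout. P3 pig 6 had the highest level of all 5 genes at that age, and P3 pig 5, the library with the fewest counts, had the lowest level of 4. The median SD over all genes tested was 0.34 on the log2 scale at P3, against 0.18 at P1, 0.15 at P7 and 0.19 at P28.

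Genes that share bases with an antioxidant gene could share its reads, since the counting of overlaps is not given in the sources used here. SOD1 lies within the span of SCAF4, for which 721 to 1685 counts were recorded per library and a log2 change from P1 to P28 of 0.21 (adjusted p = 0.368 by edgeR). SOD2 overlaps WTAP by 682 bases, and WTAP had 918 to 2360 counts and a log2 change of 0.03 from P1 to P28 (adjusted p = 0.897) and of 0.31 from P3 to P28 (adjusted p = 0.136), the ages between which SOD2 rose. PRDX1 overlaps AKR1A1 by 377 bases and MMACHC by 658. AKR1A1, with 541 to 1929 counts, fell by 0.78 on the log2 scale from P1 to P28 (adjusted p = 0.0113) and by 0.79 from P3 to P28 (adjusted p = 0.0106). From P7 to P28 its log2 change was -1.17 (adjusted p = 0.00124). MMACHC, with 171 to 353 counts, had log2 changes of 0.48 from P1 to P28 (adjusted p = 0.0579) and 0.17 from P3 to P28 (adjusted p = 0.479). The part of shared reads in the changes of PRDX1 and SOD2 was not tested. GPX1 and NQO1 overlap no other gene of the table.

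The other genes of the pathway were taken from 8 lists with 133 genes, of which 33 had a row and 31 were tested. NOX3 and CHAC1, with at most 2 and 12 counts in a library, were not tested, and none of 18 glutathione transferases had a row. From P1 to P28 edgeR called 2 of the 31 higher and 5 lower, and the other 24 were not called, where 15.3% of all genes tested were called and 7.93% were called lower. Their median log2 change was -0.15, against 0.00 over all genes tested. Without P1 pig 6 the count was 3, where 8.42% of all genes tested were called, and without P28 pig 6 it was 4, where 8.72% were called. Among the peroxidases 1 of 3 was called. GPX7, a peroxidase of the endoplasmic reticulum, fell from 37.7 ± 4.11 to 22.6 ± 1.71 CPM (SD, n = 3 each; log2 change -0.74, adjusted p = 0.0253). GPX4, which reduces lipid peroxides, had a log2 change of -0.25 (adjusted p = 0.191), and PRDX5 had 0.07 (adjusted p = 0.787). CCS, the chaperone that loads copper into SOD1, had a log2 change of -0.08 (adjusted p = 0.793). None of 5 genes of the thioredoxin and glutaredoxin system was called.

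Of 6 genes of glutathione and NADPH supply, 1 was called. ME1, the cytosolic malic enzyme that makes NADPH, fell from 21.0 ± 5.67 to 6.40 ± 1.71 CPM (SD, n = 3 each; log2 change -1.71, adjusted p = 0.00158 by edgeR). Among 4 genes of NRF2 control, 1 fell and 1 rose. DPP3, a peptidase that binds KEAP1, the inhibitor of NRF2, fell from 53.8 ± 4.16 to 17.4 ± 3.36 CPM (SD, n = 3 each; log2 change -1.62, adjusted p = 0.00116). SQSTM1, an autophagy receptor that also binds KEAP1, rose from 389 ± 59.6 to 673 ± 45.1 CPM (SD, n = 3 each; log2 change 0.79, adjusted p = 0.0356). NQO1 was not called from P1 to P28, with a 95% interval of -0.80 to 0.35. The part of NRF2 in any of these changes was not tested.

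Of 8 genes of quinone, haem and iron handling, 3 were called. The ferritin light chain gene FTL, which stores iron, rose from 745 ± 64.7 to 1098 ± 92.3 CPM (SD, n = 3 each; log2 change 0.56, adjusted p = 0.00784 by edgeR). AKR1A1, an aldehyde reductase, fell from 99.0 ± 22.7 to 57.5 ± 5.27 CPM, as given above for its overlap with PRDX1. SELENOW, a small selenoprotein, fell from 205 ± 18.9 to 135 ± 25.1 CPM (SD, n = 3 each; log2 change -0.60, adjusted p = 0.0207). None of 4 oxidant producing enzymes was called. From P1 to P3, to P7 and to the mean of the later ages edgeR called none of the 31 genes. At an unadjusted p under 0.05 these held 3, 7 and 5 genes, against 15.2%, 16.1% and 16.9% of all genes tested. DESeq2 called 0, 1 and 2, and limma voom 0, 1 and 0. Of all genes tested edgeR called 0.0543%, 2.01% and 2.46% in these comparisons, DESeq2 2.21%, 6.59% and 5.27% and limma voom 0.0362%, 3.60% and 2.53%. From P3 to P28 edgeR called 3 of the 31 higher and 7 lower, and from P7 to P28 4 higher and 7 lower, where 16.5% and 18.8% of all genes tested were called.

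**Figure D4:**
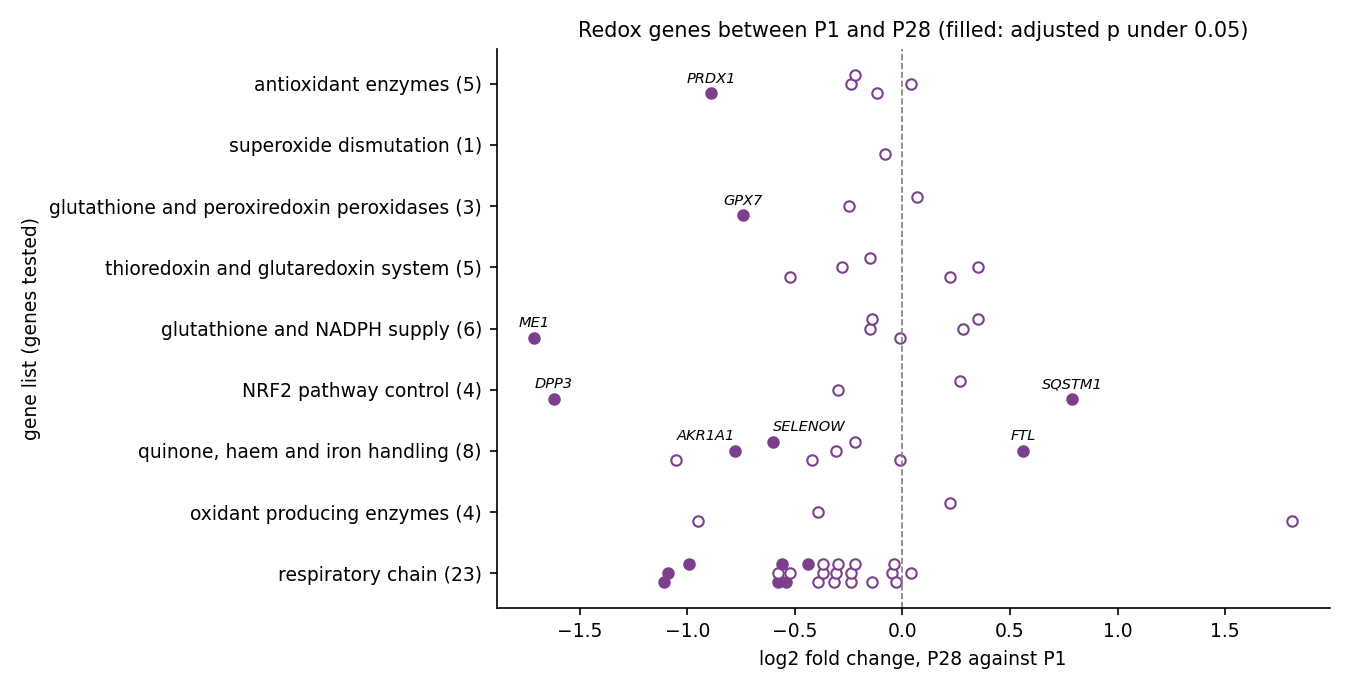
Log2 change from P1 to P28 (horizontal axis) of the 5 antioxidant enzyme genes, of 31 other redox genes by list and of 23 respiratory chain genes (rows, with the number tested), filled where the edgeR adjusted p was under 0.05. The redox genes filled are PRDX1, GPX7, ME1, DPP3, AKR1A1 and SELENOW on the negative side and SQSTM1 and FTL on the positive side, and the 7 respiratory chain genes filled are all negative.

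Nuclear genes of the respiratory chain were set beside the antioxidant genes. From P1 to P28 edgeR called 7 of 23 lower and 0 higher, where 7.93% of all genes tested were called lower. Their median log2 change was -0.37, against 0.00 over all genes tested. A fit of these ages alone called 13, as it did 21.2% of all genes tested in either direction, against 15.3% with all ages. The count was 3 without P1 pig 5 (9.58% of all genes called) or pig 6 (8.42%), 4 without P28 pig 4 (9.41%) and 2 without P28 pig 6 (8.72%). Markers of other cells also moved with age. From P1 to P28, 4 of 10 leukocyte and macrophage markers rose and their summed level went from 614 to 849.9 CPM over the P1 pigs to 905 to 1399.8 CPM over the P28 pigs. The fibroblast marker TCF21, the only 1 of 14 with a row, fell by 1.05 on the log2 scale (adjusted p = 6.78e-04 by edgeR), and 3 of 10 rows of cycling markers fell, which are TYMS and both gene IDs of CDC25C, a symbol with 2 rows of nearly the same level. The sum of the cycling markers was 275 to 441 CPM at P1, 267 to 614 at P3, 1052 to 1574 at P7 and 122 to 285 at P28. Of 9 cardiomyocyte markers CKM and MYBPC3 rose and ACTC1 fell from P1 to P28, and none of 3 smooth muscle and pericyte markers was called. Of 6 endothelial markers TEK rose and the other 5, which were not called, had log2 changes below 0 (median of the 6, -0.34). The endothelial sum was 981 to 1162 CPM at P1 and 862 to 959 CPM at P28, without overlap. Of the 3 erythroid markers with a row none was called from P1 to P28, and their sum lay between 0.847 and 12.5 CPM in all libraries. From P3 to P28, the comparison of the SOD2 rise, 2 of 3 erythroid markers fell (EPB42, log2 change -2.55, and TRIM58, -2.36) and 5 of 10 leukocyte and macrophage markers rose. TCF21, 3 of the 10 cycling rows (MCM2 and both of CDC25C) and 1 of 3 smooth muscle and pericyte markers fell there, 1 of 9 cardiomyocyte markers rose, and of the endothelial markers 1 rose and 1 fell. The erythroid sum was 8.27 to 10.4 CPM at P3 and 0.847 to 2.27 CPM at P28. From P7 to P28 all 10 cycling rows, of 9 genes, fell (median log2 change -2.53), as did 2 of 3 erythroid markers, 2 of 6 endothelial markers, 1 of 3 smooth muscle and pericyte markers and TCF21. Of the cardiomyocyte markers 4 of 9 rose there, and of the leukocyte and macrophage markers 5 of 10. No marker with a row was at 0 in all libraries. Marker sums are CPM without TMM factors. The part of these cells in the PRDX1 and SOD2 changes was not tested.

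The genes whose log2 level over the 12 libraries was most like that of each antioxidant gene are given as a description, over libraries that share age and depth. For PRDX1 these were ENSSSCG00000023323 (Pearson r = 0.962), COX7A2, a subunit of cytochrome c oxidase (0.955), and ANAPC13, a subunit of the anaphase promoting complex (0.950). For SOD2 they were MRPL39, a protein of the mitochondrial ribosome (0.950), PLSCR1, a phospholipid scramblase (0.911), and the small nucleolar RNA ENSSSCG00000019181 (0.899). For SOD1 they were the proteasome subunit PSMB1 (0.925), the NEDD8-activating subunit UBA3 (0.904) and the sorting nexin SNX3 (0.893). For NQO1 they were CFAP44 (0.874), MCEE (0.858) and SMIM4 (0.841), and for GPX1 RPUSD2 (0.818), POLD4 (0.816) and FAM167B (0.812). Among the 5 themselves, SOD1 and PRDX1 were most alike (0.739), followed by SOD1 and NQO1 (0.669) and PRDX1 and NQO1 (0.635). SOD2 and GPX1 had an r of 0.511, SOD1 and SOD2 0.384 and SOD2 and NQO1 0.308, and the other 4 pairs lay between 0.0402 and 0.0756. By ranks (Spearman's rho) SOD2 and GPX1 had 0.315, SOD1 and SOD2 0.315 and SOD2 and NQO1 0.441. All r of GPX1 include its 2 low P7 hearts.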

How the data were processed

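The authors depleted ribosomal RNA, prepared libraries with the TruSeq Stranded Total RNA kit and deposited read counts per gene without normalization. The submitters' processing notes name STAR 2.7.9a and MultiQC 1.11. The gene counter and its strand setting are not given in the sources used here. The notes name Sscrofa10.2, but 4350 of 4355 gene symbols shared with RefSeq overlapped their Sscrofa11.1 positions, so gene positions are given as Sscrofa11.1. The last line of the gene table had no counts and was left out. Of 4609 genes without a name in the table, 283 took a symbol by gene ID from a name table. The circRNA and miRNA files of the series (36 samples in all) were not used here.

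Columns were placed in groups by the age in their names. The 12 libraries came from separate pigs. A gene entered the test (5526 of 9815) if 3 or more of the 12 libraries had 10 or more counts for it. It was tested in R 4.3.3 with the quasi-likelihood test of edgeR 4.0.16, TMM normalization and all 4 ages in one fit, without covariates. P-values were adjusted by Benjamini-Hochberg over all 5526 genes, and a call is an adjusted p under 0.05. Intervals are 95% intervals from the standard error of the fit. Libraries held 8887176 to 14883849 counts. Likeness was Pearson's r of log2 CPM with a prior count of 2. The test was checked on simulated data with known changes.

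The genes named are all members, up to 3 called genes of each redox list, by p from P1 to P28, genes that overlap a member, the 3 genes most like each member and, chosen after their values were seen, genes that split the P7 pigs as GPX1 did, GPX4, PRDX5 and CCS of the redox lists, the listed genes NOX3 and CHAC1 below the filter, and some of the cell type markers. The members and lists were chosen with earlier results of these data known. Alternatives were DESeq2 1.42.0, limma 3.58.1 voom, DESeq2's size factors, other filters, no Metazoa_SRP genes, protein-coding genes alone, the ages compared alone, the number as a replicate block, the study's thresholds (p up to 0.05 without adjustment, with a log2 change beyond 0.5 in either direction) and each pig left out. Figures were made with matplotlib 3.10.9 under Python 3.11.15.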

Additional observations from a re-analysis of the deposited data

How the results depend on the processing

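Of 730 alternative values of the member results, without the study's thresholds, which were applied to the counts of calls alone, 682 kept their direction and their side of the threshold, 20 lost a call, 8 gained one and 20 changed sign without a call. The drop of PRDX1 from P1 to P28 was kept in all 21 alternatives (adjusted p from 4.68e-04 to 0.0408). Of the 5 members, DESeq2 called 1 in place of 0 between P1 and P3. The study's thresholds gave 1 in place of 0 for P3, P7 and the mean of the later ages against P1. Fitting the ages compared alone gave 1 in place of 2 between P3 and P28, and 13 respiratory chain genes in place of 7 between P1 and P28. Leaving out 1 pig at a time gave 0 members called between P1 and P3, 0 to 2 between P1 and P7, 1 between P1 and P28, 0 to 1 against the mean of the later ages, 0 to 1 between P3 and P7, 0 to 2 between P3 and P28, 0 to 2 between P7 and P28 and 0 to 3 across all ages. It gave 3 to 10 redox genes and 2 to 10 respiratory chain genes between P1 and P28. The cause of these shifts was not tested.

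The changes of sign lay among differences without a call. When 1 pig at a time was left out, these log2 differences crossed 0. From P3 to P7 they ranged from -0.07 to 0.31 for SOD1, from -0.12 to 0.45 for SOD2 and from -0.24 to 0.23 for PRDX1. From P3 to P28 they ranged from -0.23 to 0.15 for SOD1 and from -0.45 to 0.00 for GPX1. From P1 to P28 they ranged from -0.21 to 0.01 for SOD2 and from -0.21 to 0.23 for GPX1. For NQO1 they ranged from -0.41 to 0.04 for P1 to P3, from -0.16 to 0.14 for P1 to P7, from -0.37 to 0.01 for P1 to P28, from -0.06 to 0.39 for P3 to P7, from -0.27 to 0.18 for P3 to P28 and from -0.37 to 0.04 for P7 to P28.

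The main fit did not pair the ages by pig number. Deviations of same-numbered pigs had correlations from -0.186 to 0.331 (mean 0.0382) over 18 pairs, and other pairs from -0.263 to 0.249 (mean -0.0183). With 3 pigs at an age, these overlapping ranges cannot decide whether a number marks a shared litter or day. With the number as a replicate block, the members called stayed at 0, 0, 1, 0, 0, 2 and 1 in the 7 comparisons and at 2 across all ages, and GPX1 changed sign from P1 to P28 (-0.03, adjusted p = 0.981). Over all genes tested the block moved the calls from 3 to 7 between P1 and P3, from 122 to 77 between P3 and P7 and from 846 to 784 between P1 and P28, while DESeq2 called 122 genes between P1 and P3, 364 between P1 and P7 (111 by edgeR), 291 for the later ages (136), 363 between P3 and P7 (122) and 1786 across all ages (1183). Redox genes called went from 7 to 8. With 3 pigs at an age and the spread seen for GPX1, a change of up to 1.39 between P1 and P28 lies within its interval.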

Other observations

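The genes that came next to GPX1 and SOD2 in the ranking of the P7 pigs, among the 2059 genes with at least 0.5 times the mean level of GPX1, are given in order and were named after their values were seen, with no test of a theme. MX1, an antiviral GTPase, came 2nd, with 78.2, 33.6 and 15.1 CPM in P7 pigs 4, 5 and 6. IFI6 came 3rd, with 202, 72.7 and 87.5 CPM, and IFI44 came 4th, with 70.6, 34.0 and 30.5 CPM. The genes at the 5th and 6th place carry the name ssc-mir-1285 with different gene IDs, and had 2778, 1339 and 1191 CPM and 10835, 5825 and 2861 CPM. SOD2 came 7th, and MLYCD, the malonyl-CoA decarboxylase, came 8th with 129.7, 71.8 and 71.4 CPM. All were highest in P7 pig 4, as the ranking requires. At P28 MX1 had 184, 130.3 and 200.4 CPM, against 59.9, 88.2 and 102 CPM at P1. The groups of MX1 did not overlap between these ages, as for 44.4% of all genes tested, whereas those of SOD2 did.

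The 3 genes most like SOD2 over the 12 libraries were, like SOD2, lower in every P3 pig than in every P1 pig. In either direction, 16.0% of all genes tested did not overlap between these ages. MRPL39 had 149.6, 129 and 171 CPM at P3 and 209, 193 and 189.6 CPM at P1. PLSCR1 had 29.0, 26.7 and 34.9 CPM at P3 and 52.7, 48.7 and 52.8 CPM at P1. The small nucleolar RNA ENSSSCG00000019181 had 3.97, 2.01 and 2.81 CPM at P3 and 9.11, 6.70 and 5.93 CPM at P1. They were chosen for their likeness to SOD2 over these libraries, so that this is a description.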
